A study of Mus musculus with 2 samples.

Results

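Ribosomal protein genes were taken as the protein-coding RefSeq genes whose symbol begins with Rpl or Rps and a digit, together with Rplp0, Rplp1, Rplp2 and Rpsa, with the S6 kinase genes left out. This gave 91 of the 21774 protein-coding genes used. They comprised 77 core genes, of which 43 encode large-subunit proteins, 31 small-subunit proteins and 3 the ribosomal stalk (Rplp0, Rplp1 and Rplp2). A further 13 genes were paralogs or copies of core genes, such as Rpl10l beside Rpl10. Rps19bp1 matches by symbol but encodes a protein that binds Rps19, not a ribosomal protein. The data were single-nucleus ATAC-seq, in which a transposase cuts accessible DNA in nuclei that each carry their own barcode, and the tissue was striatum taken at E14.5 from wild-type mice. Strains named in the labels are C57BL/6J and CD1. Both libraries form 1 group, and nothing in the labels ties them to separate embryos. What was deposited for them is a single list of 87174 peaks, regions called accessible, with positions and no counts, so depth and error between libraries are unknown and no test between groups is possible. Peaks from nuclei of every type stand in that list together, so accessibility in few nuclei and in many cannot be told apart. All 10 forebrain and striatal genes looked at (Dlx1, Dlx2, Dlx5, Dlx6, Meis2, Six3, Foxp1, Ebf1, Gad1 and Gad2) had a peak at a gene end. So did 67.3% of all protein-coding genes, so these peaks cannot serve as a check of the tissue.

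Ribosomal proteins assemble with ribosomal RNA into the large and small subunits that translate messenger RNA, and nearly every cell needs them in balanced amounts. The messenger RNAs of core genes begin with a C followed by a run of pyrimidines, the 5′ terminal oligopyrimidine (TOP) tract, through which growth signalling by mTOR sets their translation. Their promoters are known for transcription that starts within this pyrimidine stretch. Many introns of these genes carry small nucleolar RNAs (snoRNAs), which guide the modification of ribosomal RNA. In mammals the family has also left a large number of processed pseudogenes, copies made from messenger RNA that arrive without the parent promoter.

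Every core gene had a peak over its span. The share was 77 of 77 core genes (100%), against 73.3% of all protein-coding genes and 49.8% of those no longer than 10 kb, which is the nearer comparison because the 91 genes were short (374 to 16779 bp, median 3175 bp). A peak overlapped the window of 1000 bp to either side of a gene end, called a gene-end peak, at 76 of 77 core genes (98.7%, exact 95% binomial interval 93.0 to 99.97), against 67.3% of all protein-coding genes. Counting paralogs and Rps19bp1, 85 of 91 genes had one, and 89 of 91 (97.8%) had a peak within 10 kb of their span, against 79.2% of all protein-coding genes. The core gene without one was Rpl17, a large-subunit gene on chromosome 18. A peak of 1347 bp lay inside Rpl17 and within 1000 bp of the ends of its snoRNA genes, and it began just beyond the 1000 bp window of Rpl17. With a window of 2500 bp, 86 of the 91 genes had a gene-end peak, against 71.4% of all protein-coding genes.

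The peak lay at the start of the gene. RefSeq starts and strands were listed for 70 of the 91 genes, 57 of them core. In the window from 250 bases before the start to 50 bases from it, a peak was present at 56 of 57 core genes (98.2%, interval 90.6 to 99.96), against 63.4% of all protein-coding genes with a listed start. The exception was Rpl22, for which a second start is listed inside the gene. That start was under a peak of 1354 bp, so that 57 of 57 core genes had a peak at some listed start, against 64.8% of all genes. Both stalk genes with a listed start were among them: Rplp0, the scaffold of the stalk, had a start peak of 1253 bp and Rplp2 one of 1321 bp. Rplp1, with no listed start here, had a gene-end peak of 1434 bp. Rpsa, the laminin receptor precursor of the small subunit, had a start peak of 1440 bp, and Rps27a, which encodes a fusion of ubiquitin and a small-subunit protein, a gene-end peak of 1710 bp that also lay at the end of Clhc1.

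**Figure D1:**
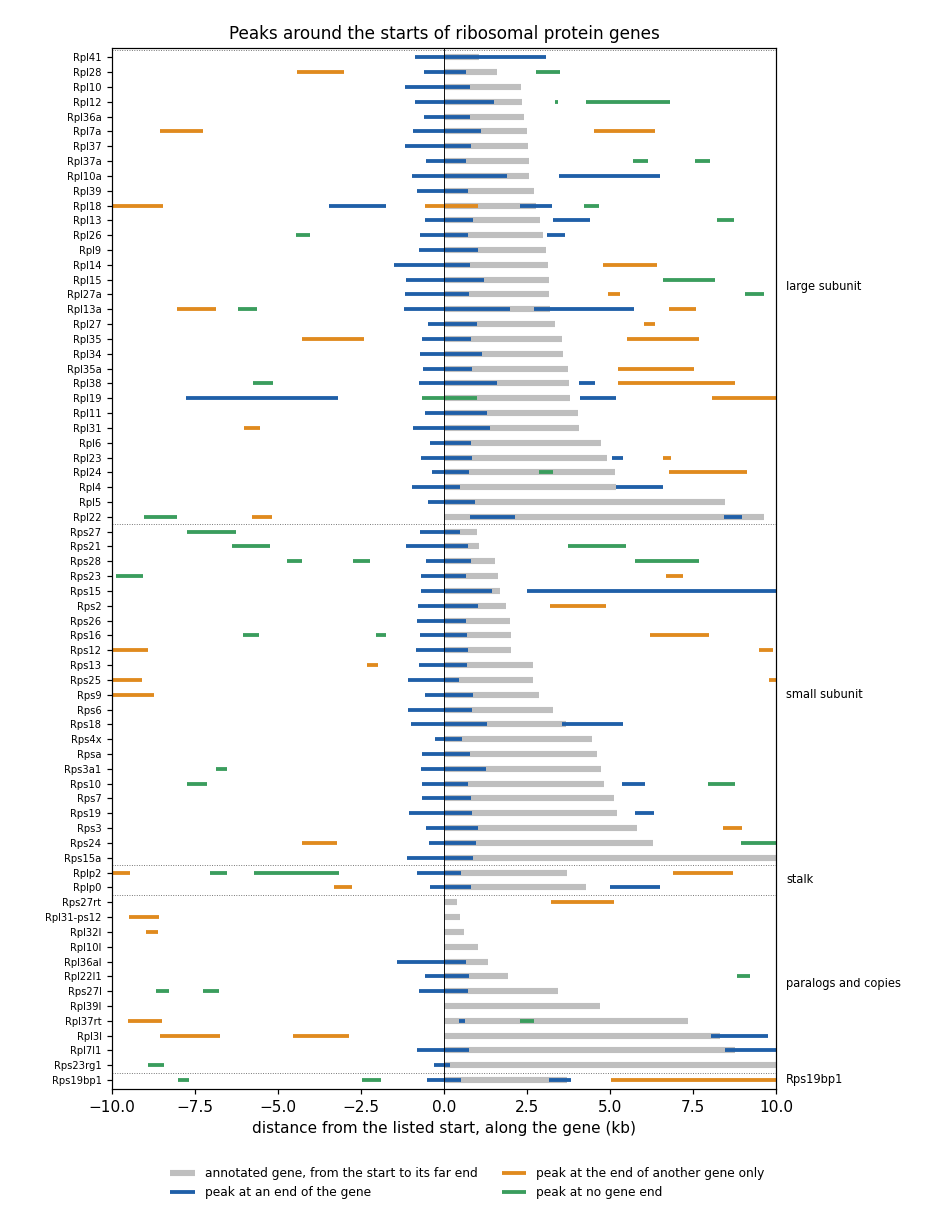
Each row is 1 of the 70 genes with a listed start, grouped by class and ordered within it by length; the x axis is the distance from the start along the gene in kb. Grey bars are genes. Blue bars are peaks at an end of the gene, orange bars peaks at the end of another gene only and green bars peaks at no gene end. A peak lies across the start of 56 of 57 core genes and 5 of 12 paralogs and copies.

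Start peaks of core genes were less spread in width and position than those of all protein-coding genes. The widths of core start peaks ran from 811 bp at Rps4x to 3948 bp at Rpl41, with a median of 1546.5 bp and an interquartile range of 512 bp. Over all 10963 protein-coding genes with a peak across the start base, the median was 1754 bp and the interquartile range 1040.5 bp, so the core genes were narrower and less spread out. Of the 56 core start peaks, 52 (92.9%) were between 1000 and 2500 bp wide, against 68.4% of all start peaks. Core start peaks reached a median of 721 bp upstream of the start and 823.5 bp downstream, against 707 and 960 bp for all genes. Their centres lay from -365.5 to 1088 bp from the start, with an interquartile range of 251.9 bp, against 359.75 bp for all genes. That range was 266.5 bp in mitochondrial ribosomal protein genes, 221.25 bp in respiratory chain genes and 347.75 bp in ribosome biogenesis genes. In other genes of TOP messenger RNAs it was 213.25 bp. The downstream side was the longer at 37 of 56 core genes (66.1%), near the 69.0% of all genes. Genes are not replicates, and these shares and medians are descriptions of 1 peak set with no test.

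Large- and small-subunit genes overlapped. Start peaks of 31 large-subunit genes ranged from 1131 to 3948 bp with a median of 1656 bp, and those of 23 small-subunit genes from 811 to 2264 bp with a median of 1490 bp. The widest belonged to Rpl41, the gene for a very short large-subunit protein (chromosome 10, 128548110 to 128549168). Its peak ran 886 bp upstream and 3062 bp downstream, covered the whole gene and also held the start of the neighbour Zc3h10. Rpl41 was the only member whose whole span lay inside a peak. That is 1.10% of members, near the 0.992% of all protein-coding genes and below the 2.74% of those up to 10 kb long. Rpl13a followed with 3201 bp and Rpl10a with 2870 bp. At the narrow end, Rps4x on the X chromosome (102184941 to 102189391) was followed by Rpl24 with 1131 bp, Rps27 with 1194 bp, Rpl37a with 1208 bp and Rpl6 with 1229 bp. The other X-linked members had start peaks of 1388 bp at Rpl36a, 1542 bp at Rpl39 and 1936 bp at Rpl10, within the range of autosomal members. Rps19bp1 had a start peak of 1034 bp.

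**Figure D2:**
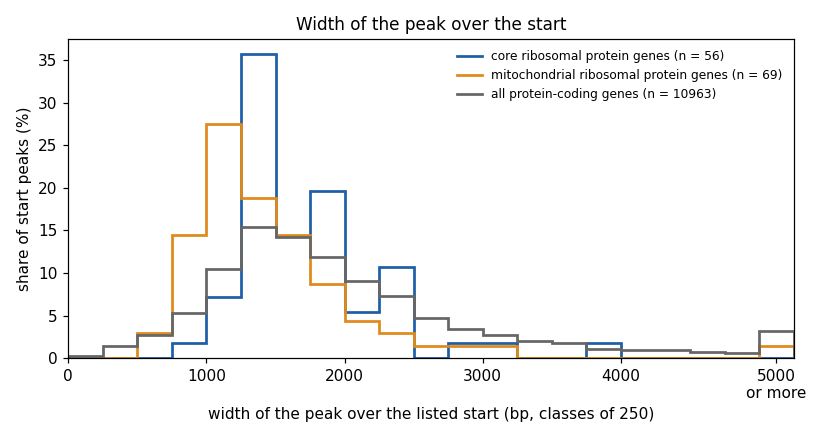
Share of start peaks (y axis, %) by width (x axis, bp, in classes of 250, with the last class open) for core ribosomal protein genes, mitochondrial ribosomal protein genes and all protein-coding genes. The core genes gather between 1250 and 1500 bp, a class that holds 35.7% of them and 15.4% of all genes.

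A few short sequences around the start were present in a larger share of core promoters than of all promoters. The first lines below are core promoters with the pyrimidine run at the annotated start; each shows the 45 bases before the start and the 15 bases from it, from RefSeq on GRCm38.p6 and in the direction of the gene, with the run of C and T that holds the start base, whatever its length, in capitals.
Rpl28 (chr7:4792920-4792979, plus strand): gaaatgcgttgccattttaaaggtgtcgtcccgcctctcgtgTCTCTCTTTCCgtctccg
Rplp2 (chr7:141447606-141447665, plus strand): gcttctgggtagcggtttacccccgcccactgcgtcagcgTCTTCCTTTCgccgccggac
Rps6 (chr4:86857353-86857412, minus strand): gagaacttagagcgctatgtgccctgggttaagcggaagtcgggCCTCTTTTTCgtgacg
Rps18 (chr17:33955651-33955710, minus strand): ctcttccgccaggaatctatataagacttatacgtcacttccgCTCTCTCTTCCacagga
Rpl38 (chr11:114668535-114668594, plus strand): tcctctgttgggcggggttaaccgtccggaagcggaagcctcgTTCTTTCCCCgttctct

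A run of 8 or more pyrimidines over the start base was found at 15 of 57 core promoters (26.3%), against 3.48% of all 17492 protein-coding promoters and 4.06% of the 11096 with a peak in the start window. The longest runs were 21 bases at Rpl7a, 20 at Rpl27a and 18 at Rpl35. Annotated starts can be off by some bases, and a run of 8 or more within 30 bases of the start occurred at 29 core promoters (50.9%), against 22.0% of all. The start base was C at 20 of 57 core promoters (35.1%), against 13.7% of all. Among other genes of TOP messenger RNAs, such as translation factor genes, 5 of 12 had the run over the start, and among mitochondrial ribosomal protein genes 1 of 69 did. Of the 12 paralogs and copies with a listed start, 2 had the run over the start and 6 had one within 30 bases of it.

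Of the factor motifs searched on both strands of the 300-base promoters, CCGGAAG, the core of ETS family sites, was present in 23 of 57 core promoters (40.4%), against 11.9% of all promoters and 17.2% of those with a start peak. It was also present in 34.8% of mitochondrial ribosomal protein promoters. The median match in core promoters began 56 bases before the start. Rpl38 and Rplp2 hold it, as do Rpsa and Rps6. None of the 15 pyrimidine runs was overlapped by a match to it. AAGATGGC, the core of YY1 sites, occurred in 5 core promoters (8.77%, against 3.21% of all): Rpl13a, Rpl22, Rpl35a, Rps15a and Rps27. Its share was larger, 17.4%, in mitochondrial ribosomal protein promoters.

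A palindrome of 10 bases, printed in capitals in the lines below, occurred in 5 of 57 core promoters (8.77%), against 0.726% of all promoters, 1.07% of those with a start peak and 1.45% of mitochondrial ribosomal protein promoters. All 5 matches began within 100 bases before the start, and they are shown with the palindrome in capitals and up to 10 bases on each side.
Rpl12 (chr2:32961648-32961677, plus strand): ggccagcggtTCTCGCGAGAgctgagcttt
Rps6 (chr4:86857399-86857428, minus strand): cgccggctgtTCTCGCGAGAacttagagcg
Rps19 (chr7:24884574-24884603, plus strand): cactccgaaaTCTCGCGAGActcgacgccc
Rpl26 (chr11:68901530-68901559, plus strand): gctccgagacTCTCGCGAGAtctcgcggca
Rps28 (chr17:33824548-33824573, minus strand): ccgcgtgcggTCTCGCGAGAgcgaaa

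For all the remaining motifs except CCAAT, the share of core promoters lay between that of all promoters and that of promoters with a start peak. GGGCGG, the GC box, was in 59.6% of core promoters, against 46.3% of all and 67.5% of those with a start peak. CACGTG, the E-box, was in 8.77%, against 7.91% and 10.2%, and the NRF1 palindrome in 1.75%, against 1.33% and 2.03%. CCAAT, the NF-Y site, was in 31.6% of core promoters, below the 39.2% of all and the 38.5% of those with a start peak. TATAAA, the letters of the TATA box, was in 10.5% of core promoters, against 6.66% of promoters with a start peak and 13.3% of all. Its core matches before the start began at positions -177, -137 and -96, and the others began after the start. Whether any of them works as a TATA box was not tested. Core promoters had a median GC content of 58.0%, against 61.7% in promoters with a start peak and 46.0% in those without. Their median ratio of observed to expected CpG was 0.903, against 0.767 and 0.167. Such matches describe letters, and binding was not measured.

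**Figure D3:**
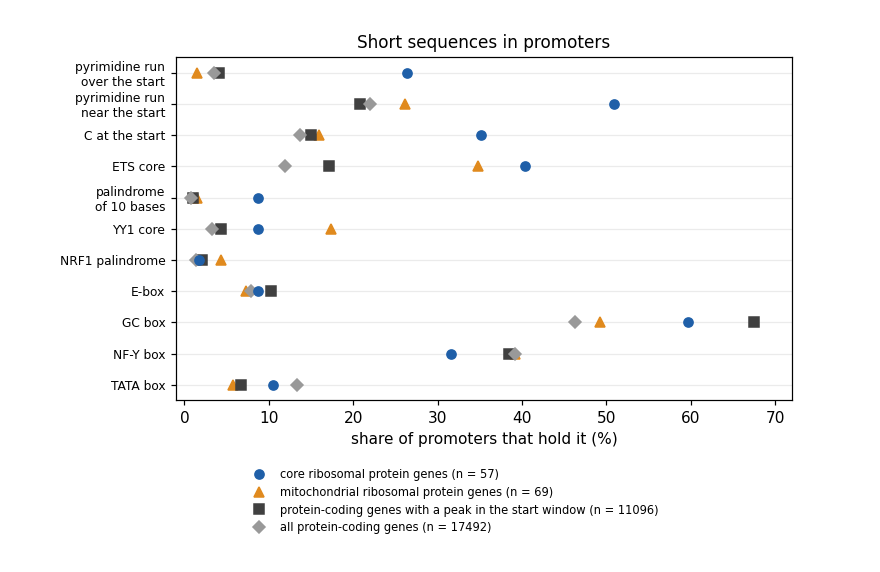
Share of promoters (x axis, %) that hold each sequence: a pyrimidine run over the start or within 30 bases of it, C at the start, and the motifs named in the text. Core genes lie to the right of the other 3 sets drawn for the pyrimidine runs, the start C, the ETS core and the palindrome of 10 bases.

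Paralogs and copies were divided. Of the 12 with a listed start, 5 had a peak in the start window (41.7%, interval 15.2 to 72.3). This was near the 43.2% of protein-coding genes up to 10 kb long, and the interval also includes the 63.4% of all protein-coding genes. The copies with such a peak are named first. These were Rpl22l1 (start peak 1338 bp), Rpl36al (2105 bp), Rps27l (1469 bp), Rpl7l1 (1567 bp), whose product takes part in building the large subunit, and the Rps23 retrogene Rps23rg1 (485 bp). Their parents Rpl22, Rpl36a, Rps27 and Rps23 had start or gene-end peaks of 1354, 1388, 1194 and 1343 bp, so the start peaks of Rpl36al and Rps27l were wider than those of their parents. Rpl7, the parent of Rpl7l1, had a gene-end peak of 2869 bp. Rpl36al shares its peak with the start of Mgat2 on the opposite strand.

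Some of the copies without a peak in the start window are genes known for use in other tissues. Whether that use bears on the missing peaks was not tested. Among protein-coding genes up to 10 kb long, 43.2% had a peak in the start window and 60.5% had one within 10 kb. The testis genes Rpl10l and Rpl39l had no peak within 10 kb (chromosome 12, 66283379 to 66284401, and chromosome 16, 10170197 to 10174911), and they were the only members of which this was true. Their X-linked parents Rpl10 and Rpl39 had start peaks of 1936 and 1542 bp. Rpl3l, the form of Rpl3 used in heart and skeletal muscle, had no peak at either of its listed starts. Its gene-end peak of 1706 bp lay at the far end and also at the end of Msrb1. Rpl3 itself had a gene-end peak of 3676 bp.

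Short copies without a start peak were Rps27rt (374 bp long), Rpl31-ps12 (484 bp) and Rpl32l (592 bp), each with a peak within 10 kb that lay at the end of another gene. Rpl34-ps1 (413 bp) had a peak of 498 bp that began 89 bp beyond its span. Rpl37rt had a gene-end peak of 164 bp that missed the start window and also lay at the end of Acads. Reads from exons of near-identical copies can map to more than 1 place, and the sources used here do not say whether such reads were kept. The part this had in the absence of peaks was not tested.

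**Figure D4:**
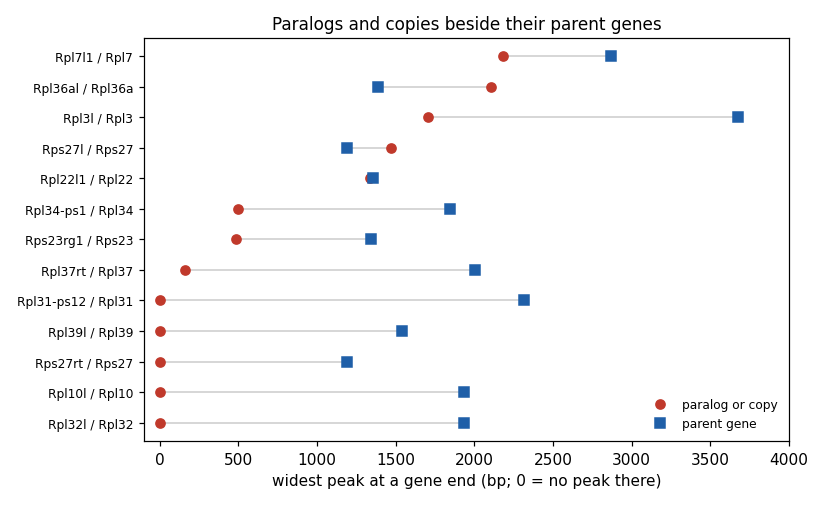
Width of the widest gene-end peak (x axis, bp, with 0 for no peak) of each paralog or copy (circle) and its parent gene (square). Rpl31-ps12, Rpl39l, Rps27rt, Rpl10l and Rpl32l are at 0, while their parents lie between 1194 and 2316 bp.

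The same windows of copies without a start peak, and of their parents, show how much upstream sequence each pair has in common.
Rps27rt (copy, chr9:114982725-114982784, minus strand): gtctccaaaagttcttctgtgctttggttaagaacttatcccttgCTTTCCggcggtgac
Rps27 (parent, chr3:90213634-90213693, minus strand): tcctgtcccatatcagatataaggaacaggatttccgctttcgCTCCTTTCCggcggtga
Rpl31-ps12 (copy, chr16:16820182-16820241, minus strand): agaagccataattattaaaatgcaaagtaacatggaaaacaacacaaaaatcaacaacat
Rpl31 (parent, chr1:39367806-39367865, plus strand): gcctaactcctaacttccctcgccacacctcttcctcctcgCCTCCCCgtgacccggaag
Rpl10l (copy, chr12:66284387-66284446, minus strand): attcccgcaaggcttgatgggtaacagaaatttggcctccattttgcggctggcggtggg
Rpl10 (parent, chrX:74270771-74270830, plus strand): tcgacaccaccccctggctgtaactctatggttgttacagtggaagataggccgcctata
The longest stretch shared by the 300-base promoters of Rps27rt and Rps27 was 38 bases. It began at the start base of the copy and 1 base past that of the parent, so the identity covers transcribed sequence. For Rpl31-ps12 and Rpl31 the longest shared stretch was 12 bases, also after the start, and for Rpl10l and Rpl10 it was 8 bases. The remaining pairs with listed starts shared 7 or 8 bases.

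Pseudogenes named after the family were rarely under a peak. They were taken by symbol, so any pseudogenes of the family under other names would be counted with the others. Of 323 pseudogenes named after ribosomal protein genes, 2 had a peak over their span (0.619%, interval 0.0751 to 2.22), against 3.86% of the 10006 other pseudogenes. The others are longer (median 941 bp, against 533 bp), and among pseudogenes up to 1000 bp long the shares were 0.671% (2 of 298) and 1.49% (80 of 5363), the first interval of 0.0814 to 2.40 including the second share. The pair with a peak were Rps4l (chromosome 6, 148354656 to 148355596), with a peak of 475 bp, and Rpl21-ps7 (chromosome 17, 83288509 to 83289082), with one of 1081 bp. As with the copies, the treatment of reads that map to several places was not tested.

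A median of 3 peaks was found within 10 kb of a member, against 2 for all protein-coding genes and 1 for those up to 10 kb long. Mitochondrial ribosomal protein genes also had a median of 3. The mean at members was 2.75, below the 3.56 of all protein-coding genes and above the 1.65 of those up to 10 kb long. The highest number was 7 at Rpl22. Rplp2 and Rpl38 had 6 each. Exactly 1 peak lay within 10 kb of 14 core genes (18.2%, against 15.6% of all protein-coding genes), and at the 11 of these with a listed start it was the start peak, among them Rps6, Rpl5 and Rpl11. Rpl5 and Rpl11 form the particle with 5S ribosomal RNA that binds Mdm2 when ribosome assembly fails. At no member did distal peaks, those away from every annotated gene end, exceed 3 within 10 kb, a number reached at Rpl22, Rplp2, Rps27l, Rpl38 and Rps28. There were none at 38 of 91 members (41.8%), near the 42.9% of all genes and below the 65.1% of genes up to 10 kb long. The 77 distal peaks counted at members had a median width of 516 bp, against 488 bp for all distal peaks. Only 3 of them lay over a member: 1656 bp at Rpl19, 416 bp at Rpl24 and 407 bp at Rpl37rt. The one at Rpl19 is its start peak, since the listed start lies inside the annotated span.

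Of the 85 members with a gene-end peak, 51 (60.0%) shared one with the end of another gene, against 43.6% of all protein-coding genes with such a peak and 54.2% of those up to 10 kb long. In 31 members (36.5%) the other gene was protein-coding, above the 30.3% of all protein-coding genes and below the 43.0% of those up to 10 kb long. This share was 54.5% in mitochondrial ribosomal protein genes and 52.8% in respiratory chain genes. An opposite-strand start lay under 11 of the 56 core start peaks (19.6%), against 24.8% of all start peaks and 40.6% of those of mitochondrial ribosomal protein genes. Partners at Rpl core genes included Med22 at Rpl7a, Lrsam1 at Rpl12, Lias at Rpl9 and Iqcg at Rpl35a, and at Rps genes Rab13 at Rps27, Vps52 at Rps18 and Ndufa7, a complex I gene, at Rps28.

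The broadest 1% of all peaks (over 4479 bp) supplied a gene-end peak at 3 of 91 members (Rps15, Rpl36 and Rpl19), and at 3.42% of all protein-coding genes. The peak at each of these 3 members also lay at the end of another protein-coding gene. At Rps15 this peak of 8049 bp began 827 bp past the gene and lay at the end of Apc2, while the start peak was 2138 bp wide. At Rpl19 the peak of 4552 bp overlapped the span and the end of Cacnb1, and the start peak was 1656 bp wide. At Rpl36 the peak of 4570 bp also lay at the end of Lonp1. At least 2 gene-end peaks were present at 21 of 77 core genes (27.3%), against 12.8% of all protein-coding genes.

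snoRNA genes were numerous inside the family. They numbered 59, in 30 of the 91 members, with 5 in Rpl4 and 4 in Rpl7a, among others. A peak overlapped 19 of the 59 (32.2%), against 5.79% of all snoRNA genes, 7.21% of those inside protein-coding genes and 21.6% of those inside protein-coding genes up to 10 kb long. The last set numbers 116 and includes the 59.

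High shares of genes with a peak were also found in other lists of protein synthesis and the mitochondrion. Peaks at a gene end were found at 77 of 78 mitochondrial ribosomal protein genes, all but Mrpl24, at 89 of 96 respiratory chain genes, at all 19 other genes of TOP messenger RNAs and at 29 of 30 ribosome biogenesis genes, all but Ubtf. Start peaks had a median width of 1326 bp in mitochondrial ribosomal protein genes, 1462 bp in respiratory chain genes, 1464.5 bp in biogenesis genes and 2000.5 bp in other genes of TOP messenger RNAs. Eef2, the elongation factor gene, had a gene-end peak of 3727 bp. The interquartile range of the core genes (512 bp) was close to those of mitochondrial ribosomal protein genes (591 bp), respiratory chain genes (554 bp) and biogenesis genes (441 bp). In other genes of TOP messenger RNAs it was 952.25 bp, nearer to the 1040.5 bp of all protein-coding genes.

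**Figure D5:**
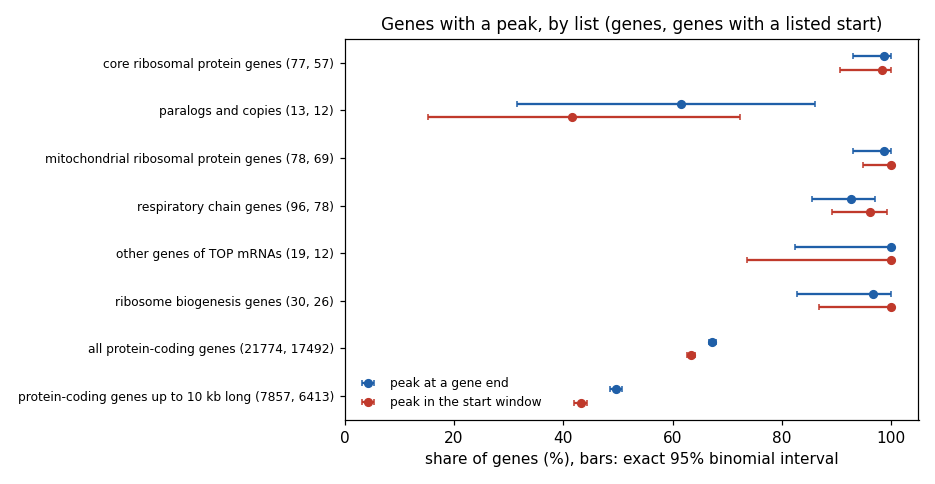
Share of genes (x axis, %) with a gene-end peak (blue) and with a peak in the start window (red) in each list, with exact 95% binomial intervals that cover counting of genes only. Core ribosomal protein genes lie at 98.7% and 98.2%, paralogs and copies at 61.5% and 41.7%, and all protein-coding genes at 67.3% and 63.4%.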

How the data were processed

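The submitters' processing notes name mm10 as the build, with Signac and Cell Ranger ATAC 1.2.0 as tools whose roles they leave out. The peak caller, its threshold, the handling of reads that map to several places and any pooling are not given in the sources used here. The deposited list holds positions alone, printed as deposited, and an offset of 1 base is possible.

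Gene spans came from a RefSeq table of GRCm38.p6, the assembly mm10 names. Of 49997 entries, 402 were left out because they lie on scaffolds or the mitochondrial genome or repeat a symbol already listed. Starts, strands and promoter sequences came from a RefSeq promoter table for 17492 protein-coding genes. Where several starts are listed, the one nearest the outer end was used. Overlap means at least 1 bp. Distal peaks overlap no window of 1000 bp around an end of any gene. Overlap counting was tested on simulated peaks. Python 3.11.15, pandas 2.3.3 and SciPy 1.17.1 were used. Shares have exact Clopper-Pearson intervals (95%).

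The members, lists and motifs were chosen with earlier results of these data known. Named were genes without a gene-end peak, those with the widest, narrowest or most peaks, paralogs with their parents and genes with shared peaks. Rpl5, Rpl11, Rps6 and other examples within a count were picked after their values were seen. Some items are not reported here.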

Additional observations from a re-analysis of the deposited data

How the results depend on the processing

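Of 43 alternative values, 38 stayed close to the reported ones, within 1.5 times for counts or inside the exact 95% binomial interval of a median (1485 to 1793 bp for the median gene-end peak width of 1551 bp, 2 to 3 for peaks and 0 to 1 for distal peaks within 10 kb). This rule is loose, and counts near 91 could hardly leave it. The members that shared a gene-end peak, 51 as reported, still counted as close at 40 by midpoint and 68 with a 2500 bp window. The share of all protein-coding genes with a gene-end peak that shared it was 35.9% and 54.4% under these settings. With a flank of 50 kb in place of 10 kb, the median number of peaks per member became 8 and of distal peaks 3, against 6 and 3 for all protein-coding genes. Pseudogenes with a peak numbered 1 of 323 with peaks wider than the median peak and 0 of 323 by peak midpoint, against 2. Pyrimidine runs near the start, in place of over it, raised that count to 29 from 15 core promoters, an alternative chosen after seeing the data, as was counting any listed start. The members with a gene-end peak ranged from 76 of 77 with core genes alone to 82, 83 and 86 of 91 with a window of 500 bp, by midpoint and with 2500 bp. Of all protein-coding genes, 64.8% had one with a window of 500 bp, 61.1% by midpoint and 71.4% with 2500 bp. No library could be left out and no paired analysis was possible because the list holds no values per library. Depth is unknown, so a missing peak is not absence of accessibility.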
